A study of Mus musculus with 12 samples.

Results

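The respiratory chain passes electrons from NADH and succinate to oxygen through complexes I to IV of the inner mitochondrial membrane, with coenzyme Q and cytochrome c as the carriers between them. Most of its subunits are encoded in the nucleus, and the rest in mitochondrial DNA. The heart depends on this chain for nearly all of its ATP, and the nuclear subunit genes are known targets of the transcription factors NRF1, ETS-family factors, YY1 and the estrogen-related receptors (ERRs). RIP140, the product of Nrip1, is a corepressor of nuclear receptors, including the ERRs.

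The 57 genes described here are nuclear genes for subunits of complexes I to IV and for cytochrome c, taken from a fixed list of symbols. They comprise 34 genes of complex I, 4 of complex II, 9 of complex III, 9 of complex IV and the cytochrome c gene Cycs, out of 21938 protein-coding genes. All 57 symbols matched GENCODE M21 on the GRCm38 build. Each gene was given a window made of its gene body and 5 kb on each side, and every listed H3K27ac region that touched the window was counted for it. No window overlapped the window of another of these genes.

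H3K27ac, an acetylated form of histone H3 found at active promoters and enhancers, was mapped by CUT&RUN, in which an antibody guides a nuclease to the chromatin and the released DNA is sequenced. Cardiomyocytes (CMs) were isolated from mice 10 to 12 weeks old, with 200000 cells in each experiment. Both genotypes carried the floxed Nrip1 allele (Nrip1 f/f). The controls lacked Cre (Cre-), and the csNrip1-/- animals, here KO, carried Cre (Cre+) under the promoter of Nkx2.5, a cardiac transcription factor gene. Each genotype had 3 H3K27ac and 3 IgG replicates. The files used here are 1 merged list per genotype of the regions called in at least 2 of 3 replicates, and they give no signal, no tag count and no value per replicate. The values below are therefore 1 per genotype, with no replicate error and no test, and the depth is unknown. A region was called KO-only or control-only if it did not overlap any region of the other list by even 1 bp. In such bulk data, fewer cells with the mark and less of the mark per cell cannot be told apart.

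The control list held 53754 regions and the KO list 45521. The loss of Nrip1 could not be checked from these lists, which hold no RNA level. The window of Nrip1 held 10 regions in each list, covering 54947 bp in control and 49741 bp in KO CMs, with 1 control-only and 0 KO-only. The transcription start site (TSS) lay in a region for 8 of 8 CM markers in both lists, including Myh6 and Tnnt2, and for none of 6 fibroblast and none of 5 macrophage markers. It did so for 4 of 5 endothelial markers in both lists, with Cdh5 the exception. Of 4 smooth muscle and pericyte markers, 1 had its TSS in a control region and 2 in a KO region. The part of other cell types in the results below was not tested.

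The sequences before the starts of 4 genes show the range of promoters among the respiratory chain genes. Cox7a1 and Cox8b encode heart and skeletal muscle isoforms of complex IV subunits, and their regions were longer in KO CMs. Ndufv3, an accessory subunit of complex I, was the only gene here whose TSS lay in a region of 1 list but not of the other. Cycs encodes cytochrome c. The 150 bases that end just before the RefSeq start (GRCm38.p6) are printed in the direction of transcription, with each CpG in capitals. They were read from chr7:30184021-30184170 (plus strand), chr7:140900447-140900596 (minus strand), chr17:31519965-31520114 (plus strand) and chr6:50566570-50566719 (minus strand).
Cox7a1: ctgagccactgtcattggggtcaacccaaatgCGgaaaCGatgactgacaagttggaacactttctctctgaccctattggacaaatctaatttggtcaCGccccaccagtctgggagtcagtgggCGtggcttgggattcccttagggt
Cox8b: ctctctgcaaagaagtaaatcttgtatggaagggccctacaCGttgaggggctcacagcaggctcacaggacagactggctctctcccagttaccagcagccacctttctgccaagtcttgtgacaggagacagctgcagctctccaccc
Ndufv3: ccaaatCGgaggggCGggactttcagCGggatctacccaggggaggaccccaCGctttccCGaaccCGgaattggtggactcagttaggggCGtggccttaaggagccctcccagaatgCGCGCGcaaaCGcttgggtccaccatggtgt
Cycs: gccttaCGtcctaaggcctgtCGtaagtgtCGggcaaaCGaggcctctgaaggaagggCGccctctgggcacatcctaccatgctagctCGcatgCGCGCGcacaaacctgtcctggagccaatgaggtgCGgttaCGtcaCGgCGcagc

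These stretches hold 4 CpGs for Cox7a1 and 1 for Cox8b, against 11 for Ndufv3 and 13 for Cycs. RefSeq promoters, from 250 bases before to 50 after the start, were matched for 44 of the 55 genes with a listed region. Their median ratio of observed to expected CpG was 0.792, against 0.602 over 16521 protein-coding genes, and the median GC content was 58.7% against 57.0%. Cox8b, at 0.115, and Cox7a1, at 0.333, had the lowest ratios of the 44, followed by Cox7b at 0.368, and the highest was that of Ndufa11 at 1.14. The muscle isoforms thus stood at the CpG-poor end of a mostly CpG-rich group. Cox6a2, the other muscle isoform of complex IV in the list, had no matched promoter.

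The promoters were searched on both strands for the letters of 4 motifs. NRF1 (GCGCATGCG) was found in 4 of 44, or 9.09%, against 2.52% of all matched promoters. These were Ndufa8, Ndufa11, Uqcr11 and Cycs, which are shown with the letters in capitals because NRF1 is the best known activator of these genes. Where the capitals read CGCATGCGC, the letters lie on the other strand. The strands printed were minus for Ndufa8 (chr2:36049329-36049357), plus for Ndufa11 (chr17:56717692-56717720), minus for Uqcr11 (chr10:80406808-80406836) and minus for Cycs (chr6:50566612-50566640).
Ndufa8: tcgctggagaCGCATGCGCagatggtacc
Ndufa11: cctgcactgcGCGCATGCGcgcacgcctt
Uqcr11: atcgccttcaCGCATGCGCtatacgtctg
Cycs: catgctagctCGCATGCGCgcgcacaaac

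The first of these bases lay 9 bases before the RefSeq start in Ndufa8, 60 in Ndufa11, 5 in Uqcr11 and 61 in Cycs, and Ndufa11 held a second match shifted by 1 base. YY1 (AAGATGGCG) was found in 5 of 44, or 11.4%, against 2.08%, namely in Ndufa9, Ndufc1, Ndufs4, Ndufs6 and Ndufs7. ETS (CCGGAAGTG) was found only in Uqcrh, or 2.27% against 2.97%, and ERR (TCAAGGTCA) only in Sdhd, or 2.27% against 0.321%. Within 500 bp on each side of the TSS, over all 55 genes, the shares were 10.9% for NRF1, 16.4% for YY1, 5.45% for ETS and 9.09% for ERR, against 3.40%, 3.71%, 3.66% and 1.73% of all protein-coding genes. A match of letters describes the sequence and does not show a bound factor.

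Other features also set the group apart from protein-coding genes at large. The median gene length was 7456 bp against 17425 bp, with a range from 953 bp in Cox6a2 to 100464 bp in Ndufs4. The window of 37 of the 57 genes, or 64.9%, also held the TSS of another protein-coding gene, against 29.9% of all. A TSS on the opposite strand lay within 1000 bp for 20 of them, or 35.1%, against 8.97%. A region near such a gene cannot be assigned to 1 of the neighbors.

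H3K27ac covered the start of nearly every respiratory chain gene in both genotypes. The TSS lay in a control region for 54 of 57 genes and in a KO region for 53 of 57, and the same held for 44.3% and 47.7% of all protein-coding genes. Of the 54 genes with the TSS in a region of either list, 1 had it in a control region only (Ndufv3) and 0 in a KO region only, against 5.03% and 11.9% of all such genes. In Ndufs5, an accessory subunit of complex I, the TSS of the transcript used here lay 361 bp from the nearest control region and 825 bp from the nearest KO region, while the 5′ end of the gene lay in a region of both lists. Ndufs3, a complex I core subunit, and Uqcrc1, a complex III core protein, had no region within 5 kb in either list. For both genes the empty stretch was shared with their neighbors, spanning at least 203.7 kb around Ndufs3 and 184.9 kb around Uqcrc1, so neither was analysed further and nothing is read from it about H3K27ac at these genes. It is not known whether the lists used here are complete over these stretches, and both genes count as uncovered in the 54 and 53 of 57 above.

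**Figure D1:**
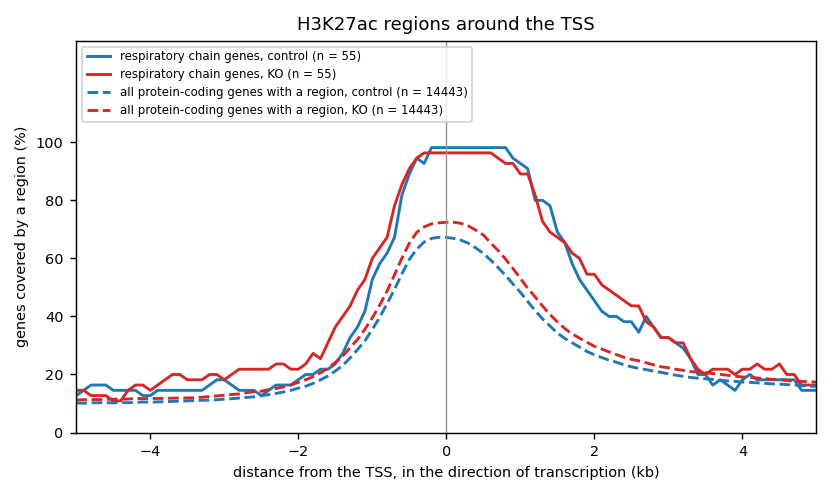
Share of genes covered by an H3K27ac region (y axis, %) at each distance from the TSS (x axis, kb, in steps of 100 bp), in the control list (blue) and the KO list (red), for the 55 respiratory chain genes with a region (solid) and all 14443 protein-coding genes with a region (dashed). At the TSS the solid lines stand at 98.2% in control and 96.4% in KO CMs, and the dashed lines at 67.2% and 72.4%.

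The regions over the starts were also merged from more replicate peaks than those of other genes. The name of each region gives the number of replicate peaks merged into it, and 2 is the lowest number. It was 3 or more for 46 of 54 control TSS regions (85.2%) and 46 of 53 KO TSS regions (86.8%), against 56.4% and 66.8% over all protein-coding genes. At 1000 bp downstream of the TSS, 92.7% of the respiratory chain genes were still covered in control and 89.1% in KO CMs, and at 2000 bp 45.5% and 54.5%. At 1000 bp upstream the shares were 52.7% and 60.0%. Coverage therefore reached farther into the gene than away from it in both genotypes. The same held over all protein-coding genes with a region. Of those, 48.3% in control and 53.1% in KO CMs were covered at 1000 bp downstream, and 35.6% and 39.5% at 1000 bp upstream.

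In the windows of the 55 genes with a region, the control list held 121 regions covering 305349 bp and the KO list 105 regions covering 329946 bp. The KO list thus had fewer and longer regions here, as it did over all protein-coding windows. Those held 39291 control and 33998 KO regions, with median widths of 1919 and 2368 bp. The number of regions per gene was the same in 33 genes, lower in KO CMs in 17 and higher in 5. No such split is given for all genes, so it is not read as a trait of this group. Covered length was greater in KO CMs for 31 genes and smaller for 24, against 7549 and 5426 of 12989 protein-coding genes. A greater length in KO CMs was thus the more common direction over all genes, and the counts by complex below stand beside that split. The median log2 ratio of covered length, KO over control, was 0.10, against 0.08 over those 12989 genes. The covered length was over 1.5-fold greater in KO CMs for 5 of 55 genes (9.09%), against 16.3% of all, and over 1.5-fold smaller for 4 of 55 (7.27%), against 8.60%. With these 5 kb windows, the middle of the group therefore lay near that of all genes. The shares past 1.5-fold were not above those of all genes in either direction. Within the gene body alone, however, 9 of 54 genes were over 1.5-fold shorter in KO CMs, against 12.1% of all.

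**Figure D2:**
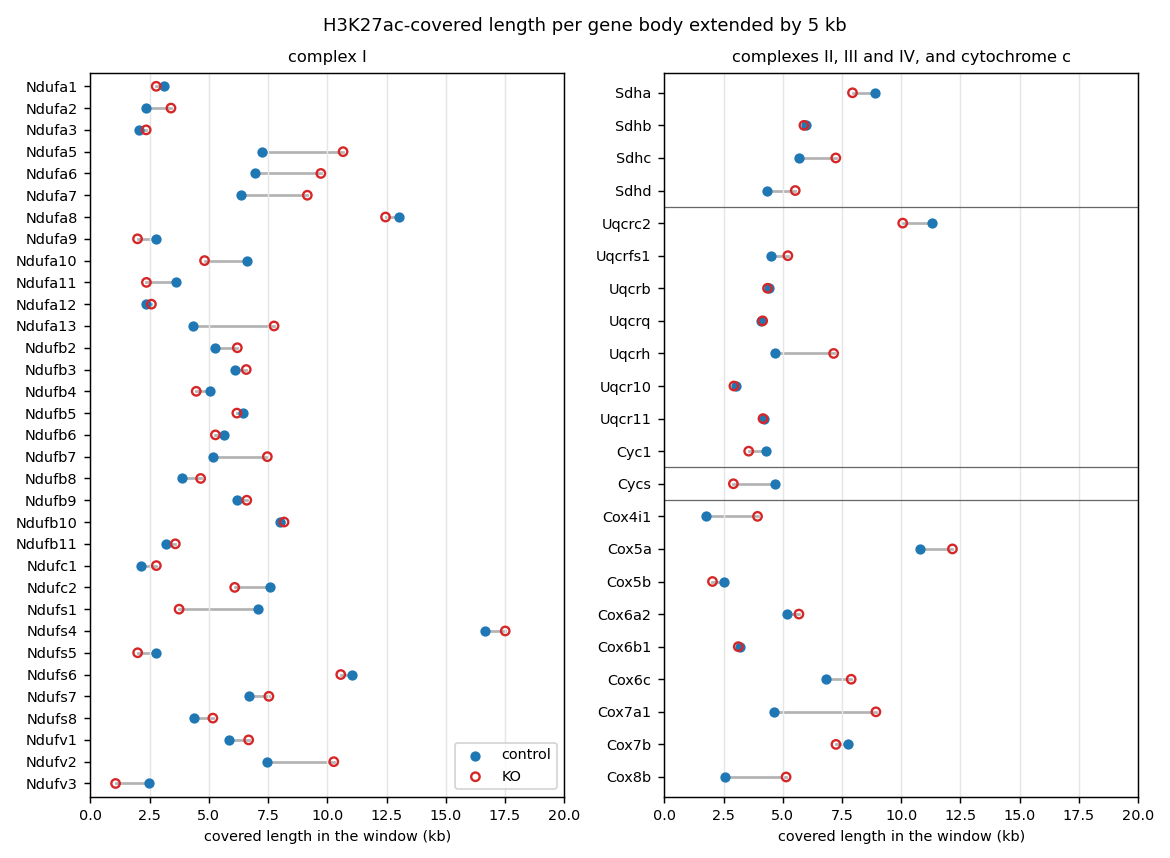
Length covered by H3K27ac regions in the window of each of the 55 genes (x axis, kb), with the control value as a filled blue point, the KO value as an open red point and a line between them. Values run from 1760 bp (Cox4i1) to 16668 bp (Ndufs4) in control CMs and from 1066 bp (Ndufv3) to 17508 bp (Ndufs4) in KO CMs, and the widest separations on the KO side are those of Cox7a1, Ndufa13 and Ndufa5.

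Taken over all 55 genes, regions found in 1 genotype only were less frequent near these genes than near protein-coding genes at large. Of 105 KO regions, 5 were KO-only, or 4.76% (95% Wilson interval 2.05 to 10.7%, counting error only), against 20.7% of KO regions in all protein-coding windows. Of 121 control regions, 18 were control-only, or 14.9% (9.62 to 22.3%), against 26.95%. The intervals treat regions as independent, although 3 of the 5 KO-only regions lay in Ndufs4, and they are no test against the background. Counted by gene, 3 of 55 windows (5.45%) held a KO-only region, against 35.2% of all, and 13 of 55 (23.6%) held a control-only region, against 39.2%. The balance between the genotypes depended on the setting. With equal numbers of regions in the lists the counts were 7 and 8 genes, against 40.3% and 29.3% of all genes. With a reciprocal overlap of 50% they were 13 and 22, against 50.5% and 53.2%. Among the 20 genes with no other TSS in the window, 1 held a KO-only and 9 a control-only region, against the 35.2% and 39.2% of all genes. Those shares were not limited to genes without another TSS in the window, so the sets are not alike. Genes with the TSS in both lists, a background chosen after seeing the data, held a KO-only region in 23.1% and a control-only region in 28.9%. Among genes of at most 15 kb with the TSS in both lists, a subset chosen after seeing the data, 1 of 43 respiratory chain genes held a KO-only region, against 12.9% of such genes, and 7 of 43 held a control-only region, against 11.7%. Against genes of like length, the control-only count was therefore not below the background.

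The genotype-only regions were mostly short and intronic. Their widths were close to those of all genotype-only regions, with medians of 1045 bp for control-only and 1279 bp for KO-only ones. No such comparison is given for introns or replicate peaks. The 18 control-only regions were 507 to 1968 bp wide (median 1017 bp), 14 of them touched an intron, and 17 were merged from 2 replicate peaks. The 5 KO-only regions were 720 to 3547 bp wide (median 1233 bp), 4 of them touched an intron, and 4 were merged from 2 replicate peaks. Within 1000 bp of a region of the other list lay 6 of the 18 control-only and 0 of the 5 KO-only regions. Most of these regions thus rested on the lowest number of replicate peaks that the lists admit.

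Complex I takes electrons from NADH. Its core subunits carry the flavin and the iron-sulfur clusters or shape the quinone site, and the accessory subunits surround and stabilize the core. Of 6 core genes in the list, 5 had a region, with 14 control and 11 KO regions, 2 control-only and 0 KO-only. The median log2 ratio of covered length was 0.19, and 4 of the 5 were covered over a greater length in KO CMs.

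Ndufs1, an iron-sulfur subunit at the NADH end, was the exception among the core genes. Its window was covered over 7058 bp by 5 control regions and over 3746 bp by 3 KO regions, a log2 ratio of -0.91. The region at its TSS was 3538 bp wide in control and 1837 bp in KO CMs, because its downstream edge lay 2781 bp from the TSS in control and 1108 bp in KO CMs. Control-only regions of 1406 bp and 523 bp lay in the gene at chr1:63167710-63169115 and chr1:63164875-63165397, the first 399 bp and the second 990 bp from the nearest KO region. Both lists also held a shared region between them. The ratio fell short of 1.5-fold when windows reached 10 kb (-0.57) or when the 2 lists were held to equal numbers of regions (-0.40).

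Ndufv1, which binds NADH and the flavin, was covered over 5848 bp in control and 6681 bp in KO CMs by 2 regions in each, a log2 ratio of 0.19. Ndufv2, its iron-sulfur partner, was covered over 7476 bp by 3 regions in control and 10274 bp by 2 regions in KO CMs, where 1 KO region at the TSS lay across 2 control regions. Ndufs7 (6707 and 7535 bp) and Ndufs8 (4393 and 5172 bp), iron-sulfur subunits next to the quinone site, had 2 regions in each list and log2 ratios of 0.17 and 0.24. The TSS region of Ndufs8, at 1674 bp, was the narrowest of the KO list among these genes. All 4 kept a TSS region in both genotypes and differed by less than 1.5-fold.

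The 28 accessory genes of complex I held 65 control and 57 KO regions, with 10 control-only and 4 KO-only. Their median log2 ratio was 0.08, with 16 genes covered over a greater length in KO CMs and 12 over a smaller length. This group held both the most regions and most of the genotype-only ones, but it was also the largest group. These counts were not adjusted for the number of genes and are not read as a trait of the group.

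Ndufv3 had the lowest ratio of all, at -1.22, with 2488 bp covered in control and 1066 bp in KO CMs. Its control region at the TSS (chr17:31519388-31521204) was 1817 bp wide, was merged from 3 replicate peaks and had no KO counterpart. The nearest KO region lay 7326 bp from the TSS of Ndufv3 on the upstream side, outside its window, and the only KO region in the window lay beyond the 3′ end, where a control region was also listed. In KO CMs the start of Ndufv3 was thus without a listed region, which does not show how much signal remained there.

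Ndufa13, which is also known as GRIM-19, had the highest ratio in complex I, at 0.85, with 4315 bp covered in control and 7753 bp in KO CMs. The difference came from 1 KO-only region of 3547 bp at chr8:69895097-69898643, merged from 3 replicate peaks, which touched exons and introns of Ndufa13 and lay nearest to the TSS of Yjefn3. The region at the Ndufa13 TSS was 3266 bp wide in control and 3519 bp in KO CMs. It was the widest KO-only region near a respiratory chain gene and the only one merged from more than 2 replicate peaks.

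Ndufa11, a subunit of the membrane arm, was covered over 3626 bp by 3 control and 2367 bp by 2 KO regions, a log2 ratio of -0.62. It held a control-only region of 666 bp at chr17:56720422-56721087, while the KO region at the TSS overlapped 2 control regions without spanning either. That KO region began 1141 bp upstream of the TSS, and the first of the 2 control regions ended 1135 bp upstream. The direction of Ndufa11 turned (log2 ratio 0.13) when only regions of at least 1000 bp, or equal numbers of regions, were kept. Its ratio was thus set by short regions.

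Ndufs4, an accessory subunit near the NADH site whose loss causes mitochondrial disease, had the longest gene and the most regions. It held 7 control and 6 KO regions, covering 16668 and 17508 bp. Control-only regions of 1112 and 1804 bp and KO-only regions of 1233, 1200 and 720 bp all lay in introns, with centers 8425 to 67253 bp from the TSS. The region at its TSS was 3225 bp wide in control and 3203 bp in KO CMs. Ndufs4 was the only gene in the list with both kinds of genotype-only region.

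Ndufa10 held 3 intronic control-only regions of 978, 507 and 1055 bp, and its covered length was 6602 bp in control and 4821 bp in KO CMs (log2 ratio -0.45). Ndufa12 (619 bp) and Ndufb4 (722 bp) held 1 intronic control-only region each, and Ndufc2 held 1 of 826 bp upstream of the gene. The covered lengths of these were 2370 and 2578 bp for Ndufa12, 5071 and 4469 bp for Ndufb4, and 7599 and 6093 bp for Ndufc2, in control and KO CMs. All 4 genes kept a TSS region in both lists and stayed within 1.5-fold. Ndufs5, with 1 region in each list, was covered over 2788 bp in control and 1997 bp in KO CMs, a log2 ratio of -0.48.

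Some other accessory genes differed in the width of the TSS region. The region of Ndufb7, a membrane arm subunit, was 1671 bp wide in control, the narrowest of the control list here, and 3995 bp in KO CMs. That of Ndufa5 was 2354 and 5519 bp, that of Ndufb2 2792 and 4890 bp, and that of Ndufa7 1710 and 2983 bp. Ndufa8 went the other way, with 4088 bp in control and 2605 bp in KO CMs. The widest TSS region in both lists among the respiratory chain genes was that of Ndufs6, a zinc-binding accessory subunit, with 8164 bp in control and 9105 bp in KO CMs. Its window is shared with Mrpl36, a mitochondrial ribosomal protein gene.

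Complex II, or succinate dehydrogenase, links the chain to the tricarboxylic acid cycle. Its 4 genes held 7 control and 9 KO regions, 0 control-only and 1 KO-only, and the median log2 ratio of covered length was 0.16. Sdha, the flavoprotein, was covered over 8902 bp in control and 7943 bp in KO CMs, and its control TSS region of 7106 bp lay across 2 KO regions. Sdhb, the iron-sulfur subunit, was covered over 5997 and 5894 bp. Neither window held a genotype-only region.

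The membrane anchors Sdhc and Sdhd were covered over a greater length in KO CMs. Sdhc was covered over 5679 bp by 2 control regions and 7238 bp by 3 KO regions, a log2 ratio of 0.35. Its KO-only region of 1237 bp at chr1:171122754-171123990 lay downstream of the gene, nearest to the TSS of Cfap126, and its TSS region was 4464 bp wide in control and 4002 bp in KO CMs. Sdhd had 1 region in each list, 4352 bp wide in control and 5527 bp in KO CMs (log2 ratio 0.34). Neither passed 1.5-fold.

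Complex III passes electrons from coenzyme Q to cytochrome c. Of its 9 genes, 8 had a region, with 15 control and 12 KO regions, 3 control-only and 0 KO-only. The median log2 ratio of covered length was -0.02, and 5 of 8 genes were covered over a smaller length in KO CMs. Uqcrfs1, the Rieske iron-sulfur protein (4487 and 5215 bp), Cyc1, cytochrome c1 (4292 and 3562 bp), and Uqcrb (4431 and 4357 bp) all stayed within 1.5-fold. In this complex, values for the 2 genotypes were mostly close.

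Uqcrh, the hinge protein next to cytochrome c1, was the exception, with 1 region of 4678 bp in control and 7147 bp in KO CMs, a log2 ratio of 0.61. Its edge downstream of the TSS lay at 1446 bp in control and 3308 bp in KO CMs. Uqcrc2, a core protein, was covered over 11304 bp by 5 control and 10062 bp by 3 KO regions. The control-only regions of Uqcrc2, of 1060 and 1599 bp, were intronic and lay 424 and 492 bp from the nearest KO region. That of Uqcrq (532 bp) lay downstream of the gene, nearest to the TSS of Leap2, and Uqcrq was covered over 4091 and 4151 bp. The TSS region of Uqcr11 was 2729 bp wide in control and 1678 bp in KO CMs, while its whole window was covered over 4213 and 4167 bp.

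Cycs, which encodes the mobile carrier cytochrome c, was covered over 4671 bp by 2 control regions and 2917 bp by 1 KO region, a log2 ratio of -0.68. The regions at its TSS, which carry the NRF1 letters shown above, were alike in width, at 2703 bp in control and 2917 bp in KO CMs. The lower ratio came from a control-only region of 1968 bp at chr6:50562534-50564501 over the 3′ part of the gene, 827 bp from the KO region. The gene start was thus covered in both genotypes, and the difference lay inside the gene.

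Complex IV, or cytochrome c oxidase, hands the electrons to oxygen. Its 9 genes held 18 control and 15 KO regions, 2 control-only and 0 KO-only. The median log2 ratio of covered length was 0.17, and 6 of 9 genes were covered over a greater length in KO CMs. The TSS regions had a median width of 2784 bp in control and 3935 bp in KO CMs, with a median log2 ratio of 0.46, against 0.11 over the TSS regions of all respiratory chain genes and 0.10 over all protein-coding genes. Of the 5 genes over 1.5-fold longer in KO CMs, 3 belonged to this complex, or 3 of its 9 genes, against 16.3% of all protein-coding genes. Each of the 3 fell below 1.5-fold under another setting, given below, so the count is not read as a trait of the complex.

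Cox4i1, the ubiquitous isoform of a regulatory subunit, had the highest ratio of the whole list. Its single region was 1760 bp wide in control and 3935 bp in KO CMs, a log2 ratio of 1.16. From the TSS it reached 288 bp upstream and 1471 bp downstream in control and 662 and 3272 bp in KO CMs. The control region was merged from 2 and the KO region from 3 replicate peaks. The neighboring gene Emc8 also has its TSS in this window, and when regions were assigned to the nearest TSS in place of the window, the log2 ratio of Cox4i1 was 0.10.

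The heart and skeletal muscle isoforms Cox7a1, Cox8b and Cox6a2 together were covered over 12408 bp by 5 control regions and 19753 bp by 3 KO regions. In KO CMs each had a single region over its TSS. Their log2 ratios of covered length were 0.95, 1.00 and 0.13, against a median of 0.07 for the other 6 genes of complex IV. The muscle isoforms are short genes of 1935, 1502 and 953 bp with no other protein-coding TSS in the window.

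Cox7a1 had 2 control regions, of 2784 bp at the TSS and 1850 bp downstream of it, which covered 4634 bp. In KO CMs a single region of 8930 bp lay across both, with edges 2922 bp upstream and 6007 bp downstream of the TSS. Its TSS region was thereby the second widest of the KO list after that of Ndufs6 and had the highest width ratio of the list (log2 1.68). Most of the added length lay outside the gene, and with windows of 2 kb or of the gene body alone the log2 ratio of covered length was 0.36 and 0.52.

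Cox8b had 1 region in each list, 2579 bp wide in control and 5141 bp in KO CMs. The added length lay upstream, where the edge was 922 bp from the TSS in control and 3287 bp in KO CMs, while the downstream edges lay at 1656 and 1853 bp. Within the gene body both lists covered all of Cox8b, so that the log2 ratio there was 0.00, and it was 0.58 with windows of 2 kb. Cox6a2 was covered over 5195 bp by 2 control regions and 5682 bp by 1 KO region, and its control-only region of 1537 bp at chr7:128210903-128212439 lay upstream of the gene. The KO region at its TSS was 5682 bp wide and the control region 4710 bp. The longer coverage of the muscle isoforms in KO CMs thus lay beside the genes more than within them. Control regions already covered all of Cox8b and Cox6a2 and most of Cox7a1, so little length could be added within these genes.

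**Figure D3:**
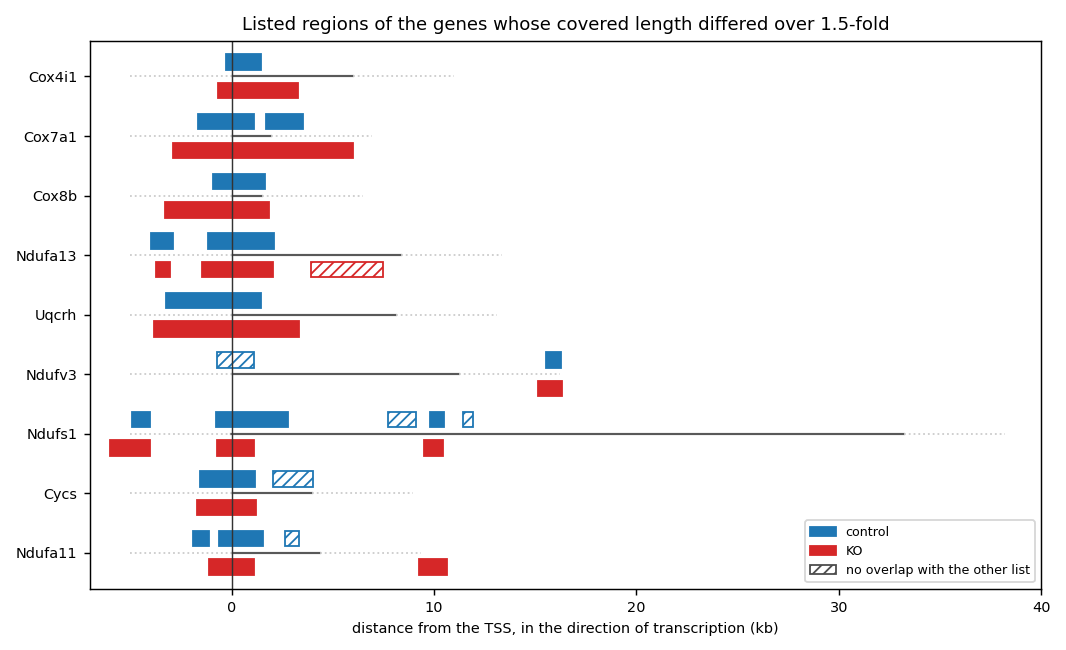
Listed H3K27ac regions of the 9 genes whose covered length differed over 1.5-fold, by distance from the TSS in the direction of transcription (x axis, kb), with control regions (blue) above and KO regions (red) below the gene (dark line) and its 5 kb flanks (dotted). Hatched regions do not overlap the other list: those of Ndufv3, Ndufs1, Cycs and Ndufa11 are control-only, and that of Ndufa13 is KO-only, while Cox4i1, Cox7a1, Cox8b and Uqcrh differ by the extent of shared regions.

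The other genes of complex IV lay closer together in the 2 genotypes. Cox5a was covered over 10792 bp in control and 12161 bp in KO CMs, Cox6c over 6830 and 7887 bp, and Cox7b over 7766 and 7245 bp. Cox5b was covered over 2520 and 2035 bp, and Cox6b1 over 3201 and 3123 bp with a control-only region of 938 bp in an intron, nearest to the TSS of Upk1a. None of these 5 passed 1.5-fold.

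**Figure D4:**
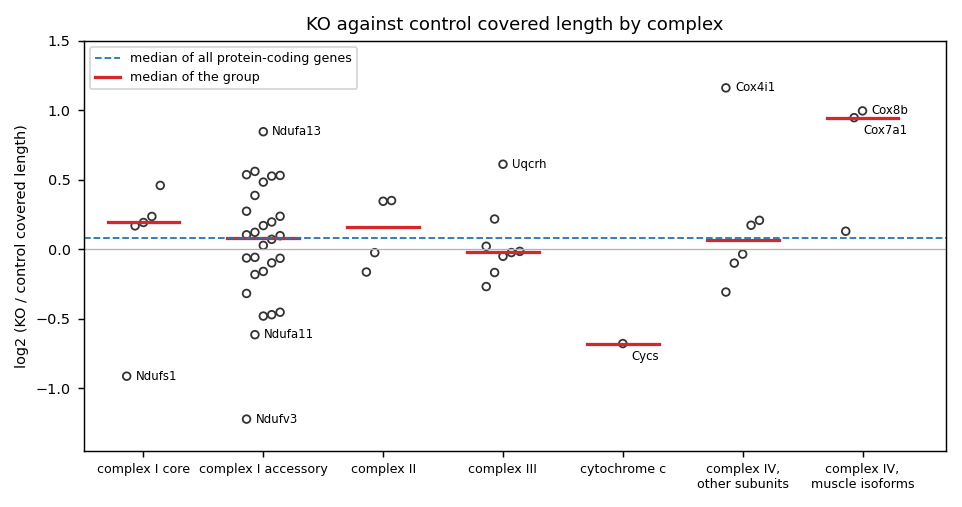
Log2 ratio of covered length, KO over control (y axis), for each of the 55 genes (circles), by complex and role, with the median of each group (red line) and the median of all protein-coding genes (dashed line, 0.08). The genes named are those past 1.5-fold, and the group medians run from -0.68 for cytochrome c, which is 1 gene, to 0.95 for the 3 muscle isoforms of complex IV.

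At the TSS, the median region width over the 53 genes with one in both lists was 3105 bp in control and 3519 bp in KO CMs, and the median log2 ratio was 0.11. Over 9155 protein-coding genes the median widths were 2671 and 2932 bp and the median log2 ratio 0.10. The region was over 1.5-fold wider in KO CMs for 8 of 53 genes (15.1%), against 18.6% of all, and over 1.5-fold narrower for 3 (5.66%), against 7.47%. The 8 were Cox7a1, Ndufb7, Ndufa5, Cox4i1, Cox8b, Ndufb2, Ndufa7 and Uqcrh, and the 3 were Ndufs1, Uqcr11 and Ndufa8. These shares did not exceed those of all genes.

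The upstream edge of the TSS region lay farther out in KO CMs for 35 of 53 genes (66.04%, all protein-coding genes 56.5%), with a median difference of 145 bp (all protein-coding genes 36 bp). The downstream edge lay farther out for 29 (54.7%, all 59.3%) and nearer for 24, with a median difference of 75 bp (all 109 bp). In complex IV the median downstream difference was 867 bp, with the edge farther out in 6 of 9 genes. KO TSS regions overlapped at least 2 control regions, by 1 bp or more, in Ndufa11, Ndufb2, Ndufv2 and Cox7a1. These were 7.55% of the KO TSS regions against 10.7% over all genes. Control TSS regions overlapped at least 2 KO regions in Ndufb9 and Sdha (3.70% against 5.48%).

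The ERR letters were then searched in all regions of these windows, since RIP140 acts on nuclear receptors. They were found in 13 of 121 control regions (10.7%) and 16 of 105 KO regions (15.2%), against 8.43% and 10.1% of the regions of all protein-coding windows. The KO regions were wider, with a median of 3004 bp against 2354 bp in control CMs, and so hold more bases to match. Both medians were also above those in all protein-coding windows, which were 2368 bp in KO and 1919 bp in control CMs. The shares were not adjusted for width. Counted by position, 16 matches near 11 genes lay in regions of both lists, 2 matches near 2 genes (Ndufb2 and Uqcrc2) in control regions only, and 6 matches near 5 genes in KO regions only. The 5 genes were Cox7a1, Ndufa13, Ndufa7, Ndufb3 and Ndufa3. No such counts are given for all protein-coding windows, so the 6 and 2 matches are not read as a difference between the genotypes. Each match was set against all regions of both lists, also those outside the window. The KO regions that hold these sites overlap control regions elsewhere, except that of Ndufa13, and the site of Ndufa3 lies just outside its 5 kb window. Their sites are shown because the bases of the match lay in a KO region and in no control region. All are read on the plus strand of GRCm38, with the match in capitals, and TGACCTTGA is the same motif on the minus strand. The pair of Cox7a1 lies at chr7:30188841-30188869 and chr7:30189304-30189332, and the others at chr8:69897187-69897215, chr17:33823514-33823542, chr1:58582348-58582376 and chr7:3611793-3611821.
Cox7a1, first: tagtcaatgaTGACCTTGAacaaccgatc
Cox7a1, second: agtcaaaagtTCAAGGTCActctcagcta
Ndufa13: aaacaatagtTCAAGGTCAtccttggtta
Ndufa7: tagcctgatcTGACCTTGAaatcctgtga
Ndufb3: ttgacctaggTCAAGGTCAaaagatttgc
Ndufa3: gcgcggcaagTCAAGGTCAcgttgatccc

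The sites of Cox7a1 lay 4707 and 5170 bp downstream of its TSS, in the part of the KO region beyond the gene that had no control region. That of Ndufa13 lay 5353 bp downstream, in the KO-only region. The site of Ndufa7 lay 1048 bp upstream of the TSS, in the widened TSS region, and those of Ndufb3 and Ndufa3 lay 4026 and 5570 bp upstream. Sites in regions of both lists lay near the TSS as well as far from it. Far sites were those of Ndufb6 at 9043 bp, Cox7b at 5867, 5170 and 3425 bp and Sdhd at 2710 bp, and the control-only matches of Ndufb2 and Uqcrc2 lay 3339 and 7670 bp from the TSS. Near sites included those of Ndufb4 at 303 and 352 bp, Ndufv2 at 371 bp, Cox6c at 431 bp, Sdhb at 525 bp and Sdhd at 1 bp from the TSS. The first site of Ndufb4 and the nearest of Ndufv2 and Sdhd are shown as matches held by both lists, read on the plus strand from chr16:37654738-37654766, chr17:66101170-66101198 and chr9:50603795-50603823.
Ndufb4: ttgtcattagTCAAGGTCAttagtgtctc
Ndufv2: atcgccttccTGACCTTGActaagttagg
Sdhd: tttcgagggcTCAAGGTCActctacaacc

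Other genes of oxidative phosphorylation were counted in the same way. Of 12 further subunit genes of complexes I to IV, 9 had a region, 2 held a KO-only (22.2%) and 3 a control-only region (33.3%), both below the 35.2% and 39.2% of all genes, and the median log2 ratio was 0.25. Cox8a, Cox6a1 and Cox7a2, the ubiquitous isoforms that pair with Cox8b, Cox6a2 and Cox7a1, were covered over 1642, 3237 and 2919 bp in control and 3894, 4667 and 3852 bp in KO CMs. Cox4i2, the isoform of Cox4i1, was covered over 4843 bp in control and 1543 bp in KO CMs, with 3 control-only regions. The greater length in KO CMs was thus also seen at the ubiquitous isoforms of these subunits.

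Among 16 ATP synthase genes, 15 had a region, the median log2 ratio was -0.10, and 4 genes were covered over a greater and 11 over a smaller length in KO CMs. Among 44 genes for assembly factors of the complexes, 43 had a region, the median log2 ratio was 0.20, and 30 were covered over a greater and 10 over a smaller length. Over all protein-coding genes the median was 0.08, with 7549 covered over a greater and 5426 over a smaller length. The assembly factor windows held 27 KO-only regions among 83, in 12 genes, and 6 control-only regions among 64, in 4 genes. By gene these were 27.9% and 9.30% of the 43, against 35.2% and 39.2% of all. The windows of the 57 subunit and carrier genes held 5 KO-only regions among 105 and 18 control-only regions among 121. Over all protein-coding windows, 20.7% of KO and 26.95% of control regions were genotype-only. The KO-only share of the assembly factors thus lay above that of all windows by region and below that of all genes by gene. The difference between these lists was not tested.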

How the data were processed

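H3K27ac and IgG CUT&RUN was done in CMs of control and csNrip1-/- mice. The authors used bowtie2 2.4.2 for alignment to GRCm38 and samtools to drop duplicates, then called regions for each replicate against IgG with Homer 4.11.1 and merged those found in at least 2 of 3. The deposited lists give positions in bp and a score that is 1 for every region and was not used. On sequences other than chromosomes 1 to 19, X and Y, 21 control and 14 KO regions were left out. Starts were shifted by 1 to count from 1. The main TSS was that of the coding transcript with the longest coding sequence, preferring CCDS transcripts. The 1.5-fold limit is the one the study used for tag counts, applied here to length. Promoters came from RefSeq (GRCm38.p6). Named genes were those with a genotype-only region, without a region at the TSS, with the 5 highest or lowest ratios, with the widest or narrowest TSS regions, with ERR or NRF1 letters in the promoter, or singled out by the study, and others were named as examples. The members and lists were chosen with earlier results of these data known. Interval steps were tested on simulated data. The tools were samtools 1.23.1 and Python 3.11.15 with pysam 0.24.0, matplotlib 3.10.9, numpy 2.4.6 and statsmodels 0.14.6.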

Additional observations from a re-analysis of the deposited data

How the results depend on the processing

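No paired analysis was possible because each genotype has 1 merged list, and for the same reason leaving out a replicate was not run. The lists hold no signal, so absence from a list does not show how much signal was there, and the depth behind each width is unknown. The number of genes with a KO-only region, 3 as reported, was 10 when shared regions had to be covered over at least 50%, 13 with a reciprocal overlap of 50%, 5 with windows extended by 10 kb, 7 with regions of at least 1000 bp, 7 with equal numbers of regions, 7 by the nearest TSS, and 1 among 20 genes with no other TSS in the window or among 43 genes of at most 15 kb. Over all protein-coding genes these shares ran from 12.9% to 50.5%. The number with a control-only region, 13 as reported, was 22 with the reciprocal overlap, 8 with equal numbers of regions and 7 among the 43 short genes. It was 9 among the 20 genes with no other TSS in the window. Genes over 1.5-fold shorter in KO CMs, 4 as reported, numbered 9 of 54 within the gene body alone, against 12.1% of all genes. They numbered 2 with equal numbers of regions, 2 with no other TSS in the window and 2 among the short genes. Genes over 1.5-fold longer, 5 as reported, numbered 2 with no other TSS in the window. The median log2 ratio of covered length, 0.10 as reported, was -0.0095 within the gene body alone and 0.01 less the median of all genes. The log2 ratio of Ndufa11 turned from -0.62 to 0.13 with regions of at least 1000 bp and with equal numbers of regions. The cause of these shifts was not tested. The counts of genes with the TSS in a region and the median ratio of TSS region width moved little under the alternatives run for them, with 54 to 55 genes in control, 53 to 54 in KO CMs and ratios of 0.11 to 0.16. The short-gene subset and the comparison with genes whose TSS lies in both lists were chosen after seeing the data.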
